A study of Mus musculus with 48 samples.

Results

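Cells of the neurovascular unit were examined for 10 of the 24973 genes in the expression table, namely the neutrophil-attracting chemokines, the granulocyte colony-stimulating factor G-CSF and their receptors. The genes were taken by name: the ligands *Cxcl1*, *Cxcl2*, *Cxcl3*, *Cxcl5*, *Cxcl12* and *Cxcl16*, the receptors *Cxcr2* and *Cxcr4*, *Csf3*, which encodes G-CSF, and *Csf3r*, which encodes its receptor. Adult male wild-type C57BL/6 mice underwent transient middle cerebral artery occlusion (tMCAO), in which a filament blocked the artery for 1 h and blood flow was then restored for 23 h, and no transgene was involved. Microglia (MG), astrocytes (AC), pericytes (PC) and endothelial cells (EC) were sorted from the ischemic (ipsilateral) and the opposite (contralateral) hemisphere, giving 4 cell types, 2 hemispheres and 6 replicates, or 48 bulk RNA-seq libraries. Each replicate pooled the cerebra of 3–4 mice, and both hemispheres came from the same operated animals, so the contralateral side is an internal control and not a sham-operated brain. Libraries of the 2 hemispheres that carry the same replicate number are called a pool here, which the labels number alike without stating that a number is 1 pool of mice. The sort took EC, PC and AC from CD45-negative cells and MG as CD45-low and CD11b-positive cells.

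The values are normalized counts, that is reads per gene scaled by the authors to be comparable between libraries. Their total per library ran from 10549900 to 16942165, and from the spacing of the low values 1 read was estimated to be worth 0.523 to 2.37 normalized counts, so that 3 reads, used here as the floor for a gene listed at 0, correspond to 1.57 to 7.1. The sorted identities were checked against marker genes: 4 of 4 EC, 4 of 4 PC, 4 of 4 AC and 9 of 10 MG markers were higher in every library of their own cell type than in any library of the others, *Sall1* in MG being the exception. Marker genes of other cell types were also present in the AC and PC libraries. The summed level of 5 oligodendrocyte markers in AC was 34808 to 310365 on the contralateral and 66158 to 383698 on the ipsilateral side, beside 57129 to 114614 and 41095 to 121715 for the 4 AC markers. In PC the sum of 4 smooth muscle markers was 305671 to 472420 contralaterally and 140102 to 323604 ipsilaterally, higher on the ipsilateral side in 0 of 6 pools, beside 44294 to 92716 and 34058 to 90625 for the 4 PC markers. The part of this RNA in the AC and PC values below was not tested. The sample titles of 12 ipsilateral libraries name MG where the column names give PC and the reverse. Groups were taken from the column names, under which those markers separate the cell types.

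Neutrophils are among the first blood leukocytes to enter ischemic tissue. The chemokines encoded by *Cxcl1*, *Cxcl2*, *Cxcl3* and *Cxcl5* carry the ELR motif and signal through CXCR2 on neutrophils, drawing them from the blood to the site of damage. CXCL12 does the opposite in the bone marrow, where it retains neutrophils through CXCR4, and in the brain it is made by the endothelium. CXCL16 exists in a membrane-bound and a shed form and binds CXCR6, and G-CSF drives the production and release of neutrophils through its receptor.

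The 4 ELR chemokine genes lie on chromosome 5 of the mouse genome (GRCm38) within 146.6 kb, in the order *Cxcl5*, *Cxcl3*, *Cxcl1*, *Cxcl2* along the plus strand. By the deposited coordinates *Cxcl5* (ENSMUSG00000029371) covers chr5:90759378-90761624, *Cxcl3* (ENSMUSG00000029379) chr5:90786103-90788093, *Cxcl1* (ENSMUSG00000029380) chr5:90891241-90893115 and *Cxcl2* (ENSMUSG00000058427) chr5:90903871-90905938. *Csf3* (ENSMUSG00000038067, plus strand) lies at chr11:98701263-98703629 and *Cxcl16* (ENSMUSG00000018920, minus strand) at chr11:70453983-70459984. The other members are *Cxcl12* (ENSMUSG00000061353, plus strand) at chr6:117168535-117181367, *Cxcr2* (ENSMUSG00000026180, plus strand) at chr1:74153989-74161246, *Cxcr4* (ENSMUSG00000045382, minus strand) at chr1:128588199-128592290 and *Csf3r* (ENSMUSG00000028859, plus strand) at chr4:126024550-126044440. All 10 are annotated as protein-coding, and each has 1 value per library for the whole gene.

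Promoter sequences from RefSeq (GRCm38.p6), 250 bases before to 50 bases after the transcription start, were matched for 7 of the 10 members. Those of *Cxcl1*, *Cxcl2* and *Cxcl3* are shown because these neighbouring genes rose together in MG. They lie on the plus strand at chr5:90890995-90891294, chr5:90903649-90903948 and chr5:90785851-90786150, and capitals mark every match, on either strand, to GGGNNNTTCC, a form of the NF-κB recognition sequence in which N is any base.

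Cxcl1: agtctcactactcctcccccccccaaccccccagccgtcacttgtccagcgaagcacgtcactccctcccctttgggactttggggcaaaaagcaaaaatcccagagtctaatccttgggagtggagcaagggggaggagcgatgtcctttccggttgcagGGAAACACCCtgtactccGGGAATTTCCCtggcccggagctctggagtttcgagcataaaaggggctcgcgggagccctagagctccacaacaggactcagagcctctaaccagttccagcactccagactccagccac

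Cxcl2: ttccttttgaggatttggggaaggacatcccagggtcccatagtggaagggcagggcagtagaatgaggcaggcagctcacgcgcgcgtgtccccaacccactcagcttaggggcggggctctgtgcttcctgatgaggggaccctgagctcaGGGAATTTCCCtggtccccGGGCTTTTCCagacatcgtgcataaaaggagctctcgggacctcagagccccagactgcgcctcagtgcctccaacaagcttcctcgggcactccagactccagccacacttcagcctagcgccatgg

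Cxcl3: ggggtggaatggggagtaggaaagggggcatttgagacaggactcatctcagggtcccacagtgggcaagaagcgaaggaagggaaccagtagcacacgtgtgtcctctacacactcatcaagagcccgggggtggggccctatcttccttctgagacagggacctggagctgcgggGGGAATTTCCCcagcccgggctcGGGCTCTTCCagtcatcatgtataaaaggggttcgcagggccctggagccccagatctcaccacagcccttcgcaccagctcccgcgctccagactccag

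All 3 promoters hold the same run of 11 bases, GGGAATTTCCC, in which a match on the plus strand and one on the minus strand overlap. Counted from its first base, the run lies 71 bases before the start of *Cxcl1*, 97 before that of *Cxcl2* and 73 before that of *Cxcl3*. A further match lies 89 bases before the start in *Cxcl1*, 78 in *Cxcl2* and 50 in *Cxcl3*. Of the other matched promoters, that of *Csf3r* held 1 match on the minus strand, 129 bases before the start, and those of *Cxcl12*, *Cxcr2* and *Cxcr4* held none, which says only that these letters are not in these windows. Among 32817 promoter windows of the same length, 5.56% held at least 1 match, and a match describes the sequence, not the binding of a factor.

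The levels of the members differed widely between cell types. In the contralateral hemisphere *Cxcl12* was the leading member in EC, at 8853 ± 4526 normalized counts (SD, n = 6), while MG carried *Csf3r* at 6746 ± 752, *Cxcl16* at 1735 ± 296 and *Cxcl2* at 1158 ± 696. *Cxcl1* was the ELR chemokine with the highest mean in contralateral EC, at 837 ± 1051, or 419 ± 261 (SD, n = 5) without replicate 2, which held 2928. To set genes side by side, levels were divided by the summed exon length of each gene in the GENCODE annotation. The mean level of *Csf3* in EC was then 62.3 normalized counts per kb on the contralateral and 849 on the ipsilateral side. Without contralateral replicate 4, at 293 normalized counts, the contralateral mean was 33.3 per kb. On the same scale *Cxcl12* in EC went from 1083 to 484, so that per kb *Csf3* had the highest mean of the 10 members in ipsilateral EC. In ipsilateral MG the highest means per kb were those of *Cxcl2* (1352), *Cxcl16* (1281) and *Csf3r* (607).

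**Figure D1:**
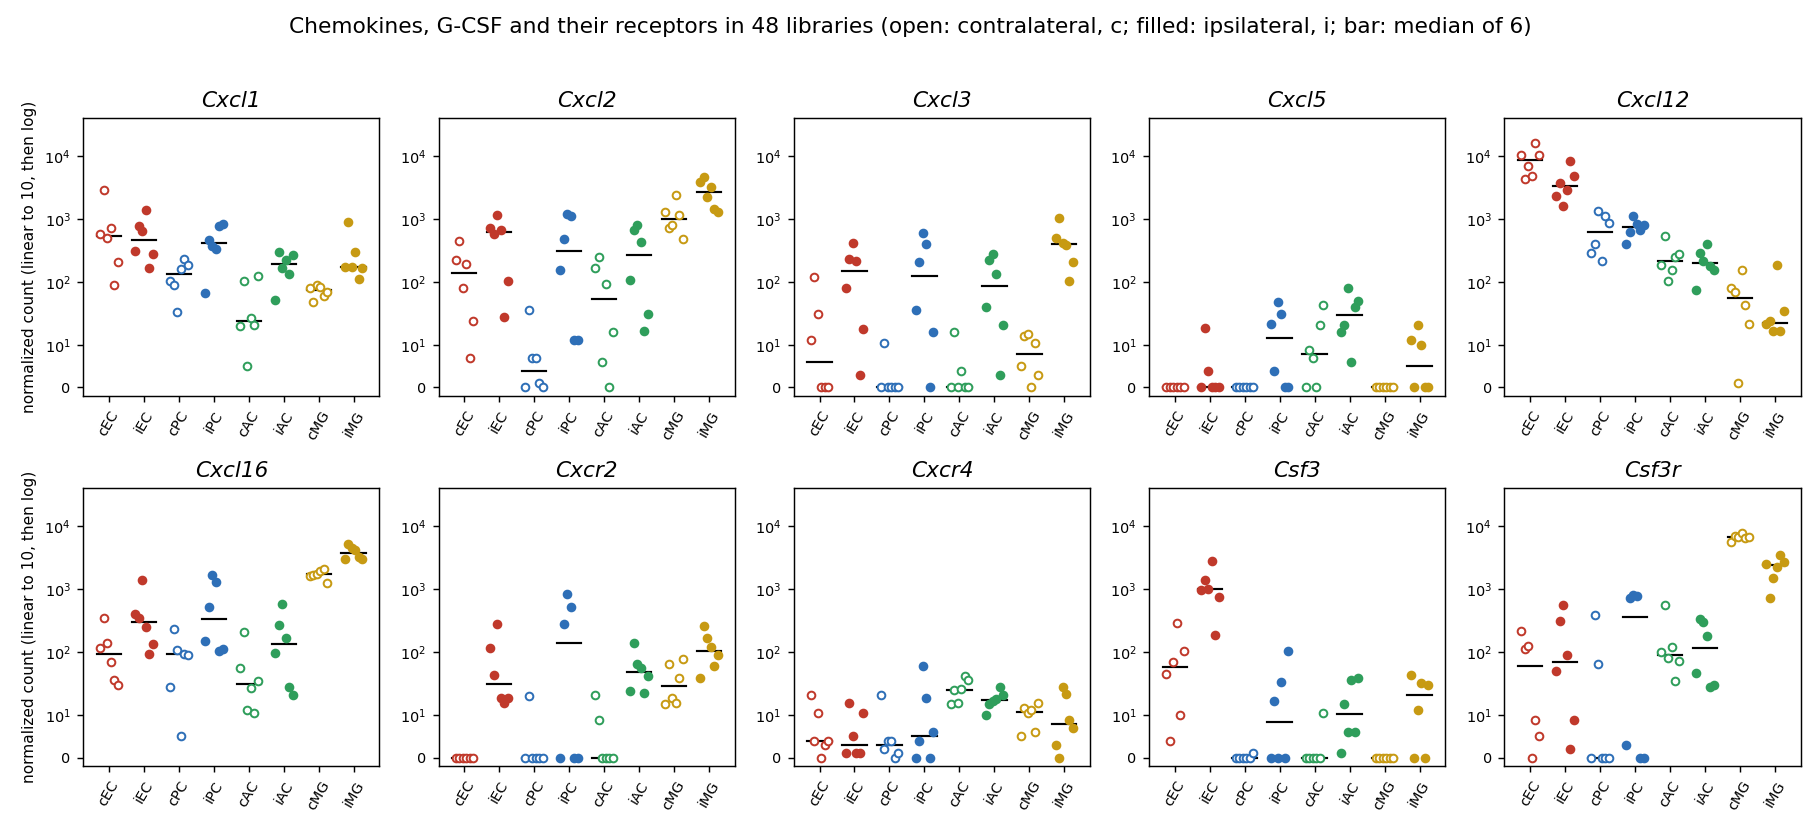
Normalized counts of the 10 members (vertical axis, linear to 10 and logarithmic above) in 8 groups of 6 libraries, with c for contralateral, i for ipsilateral, open circles for contralateral and filled circles for ipsilateral libraries, and a bar at the median. *Csf3* stood highest in ipsilateral EC (188 to 2841), *Cxcl12* in contralateral EC (4394 to 16464) and *Csf3r* in contralateral MG (5562 to 7882).

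The comparison of the hemispheres asks which of these genes responded to ischemia and reperfusion in which cell type. A gene was tested when its mean reached 10 normalized counts in that cell type, and called when the adjusted p of limma's moderated test on log2(value + 1) was at most 0.05 over all genes tested, the fold change was at least 1.5 in either direction, and all 6 libraries of 1 hemisphere exceeded 10. In EC 2 of 8 members tested were called, both higher on the ipsilateral side, against 0.491% of 13242 genes (0.551% when the pool of mice was included as a block). MG had 5 of 8 members called, 4 higher and 1 lower, against 10.6% of 13300 genes (11.0% with the block). In 1 joint fit of all 48 libraries, in which the cell types share an estimate of the spread, *Cxcl3* was the single MG member still called, and *Cxcl1*, *Cxcl2*, *Cxcl16* and *Csf3r* had adjusted p-values of 0.107, 0.556, 0.398 and 0.523. No member of the 9 tested was called in PC or in AC, where 1.02% of 13597 and 0.341% of 15264 genes were called. With the block, limma called 1 member in PC and 2 in AC, beside 1.66% and 1.59% of all genes. The median log2 fold change over all genes tested was −0.03 in EC, −0.04 in PC, −0.06 in AC and −0.18 in MG, while over the members tested it was 1.84, 2.62, 2.08 and 1.22. The members were chosen with earlier results of these data known, so these shares and medians are a description and not an independent test.

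**Figure D2:**
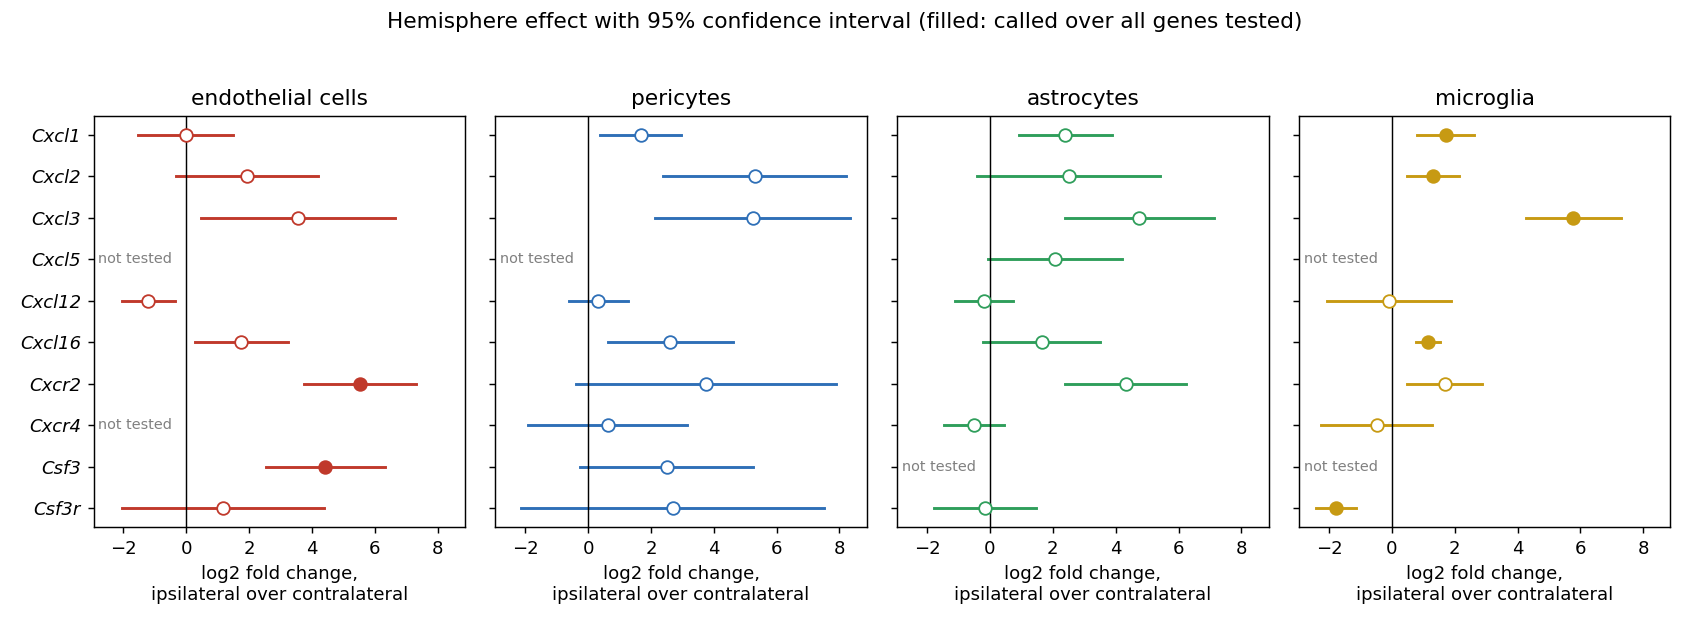
Log2 fold change, ipsilateral over contralateral, on the log2(value + 1) scale (horizontal axis) for each member in each cell type, with its 95% confidence interval. Filled points mark the called members, *Cxcr2* (5.54) and *Csf3* (4.43) in EC and *Cxcl1*, *Cxcl2*, *Cxcl3*, *Cxcl16* and *Csf3r* (−1.77) in MG, and members with a mean under 10 are written as not tested.

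*Csf3*, which encodes G-CSF, rose in EC. The 6 contralateral EC libraries ran from 4 through a median of 58.5 to 293 normalized counts, and the ipsilateral ones from 188 through 1002.5 to 2841. Every pool of mice was higher on the ipsilateral side, and the groups overlapped only because the highest contralateral library exceeded the lowest ipsilateral one. The mean went from 88.0 ± 107 to 1199 ± 898 (SD, n = 6), 13.6 times higher. Without contralateral replicate 4, at 293, the contralateral mean was 47.0 ± 42.0 (SD, n = 5). Over all 6 replicates *Csf3* in EC had a log2 fold change of 4.43 (SE 0.89, adjusted p = 0.0398, limma), which made it a call. Leaving out any 1 of the 6 replicates ended this call, with a log2 fold change of 3.69 to 4.75 and an adjusted p of 0.0584 to 0.164, so the call rested on having all 6 pools. Ipsilateral EC held 978 to 2841 in replicates 1 to 4 and 188 to 756 in replicates 5 and 6, and the log2 change averaged over the first set was 4.91 and over the second 3.48. The sum of 10 neutrophil markers in the same libraries was 2047 to 9792 against 87 to 243 and that of 5 monocyte markers 1228 to 5797 against 256 to 280, and both were higher ipsilaterally in 6 of 6 EC pools. Their part in the *Csf3* values was not tested.

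Outside EC *Csf3* was at or near 0 on the contralateral side, where all 6 MG libraries and 5 of 6 in both PC and AC were at 0. Ipsilateral values reached 104 in PC, 39 in AC and 44 in MG. PC alone of these had a mean that allowed a test, with a log2 fold change of 2.50 (95% interval −0.25 to 5.25, adjusted p = 0.37). The PC value of 104 was that of replicate 6, which had an EC marker sum of 6219. That sum was 1263 to 2159 in replicates 1 to 4 of ipsilateral PC and 2032 in replicate 5. The part of EC RNA in the *Csf3* values of PC was not tested. In the order of the 8 group levels, ipsilateral EC stood above contralateral EC (exact permutation test over the 12 libraries, two-sided, p = 0.00433), and contralateral EC did not differ from the next group, ipsilateral AC, beyond the spread (exact permutation p = 0.128). These p-values are unadjusted and belong to 70 such tests between neighbouring groups, of which 12 had p at most 0.05, and the smallest p that 6 against 6 libraries can give is 0.00216.

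*Csf3r*, which encodes the receptor of G-CSF, was highest in MG and fell there. Contralateral MG ran from 5562 through 6797 to 7882 normalized counts, and ipsilateral MG from 718 through 2400.5 to 3457. The groups did not overlap, and the gene was lower in all 6 pools. Its mean fell from 6746 ± 752 to 2192 ± 962 (SD, n = 6), a ratio of 0.325, and the log2 fold change was −1.77 (SE 0.30, adjusted p = 0.00235). The summed level of 10 microglia marker genes was also lower on the ipsilateral side in all 6 pools, at 211943 to 338543 against 410970 to 487000, and its part in the fall of *Csf3r* was not tested. In bulk samples fewer cells of a type and less RNA per cell cannot be told apart.

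In the other cell types *Csf3r* varied widely between replicates on both sides. Ipsilateral PC held 3 to 809 normalized counts in replicates 1 to 4 and 0 in both replicates 5 and 6, and ipsilateral EC held 51 to 564 against 2 to 9. On the contralateral side the sets overlapped in PC, with 0 to 389 in replicates 1 to 4 and 0 in replicates 5 and 6, and in EC, with 0 to 222 against 5 to 9. In AC they did not overlap on either side, with 81 to 573 against 35 to 74 contralaterally and 48 to 334 against 28 to 30 ipsilaterally. In PC the gene was higher ipsilaterally in 4 of 4 pools among replicates 1 to 4, with a mean log2 change of 4.03. The microglia marker sum in the ipsilateral libraries was 13345 to 59700 against 759 to 969 in PC, and 6531 to 48433 against 1042 to 1102 in EC. All 10 of these markers exceeded 10 in at least 1 library of each group. In ipsilateral PC *Csf3r* was at 3, 737, 809, 773, 0 and 0 in replicates 1 to 6, beside sums of 10 neutrophil markers of 45, 4923, 12330, 5874, 50 and 161. The part of microglia and of neutrophil RNA in the *Csf3r* values of EC, PC and AC was not tested. The hemisphere effect on *Csf3r* was 1.17 (95% interval −2.04 to 4.39) in EC, 2.69 (−2.13 to 7.51) in PC and −0.16 (−1.79 to 1.47) in AC.

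**Figure D3:**
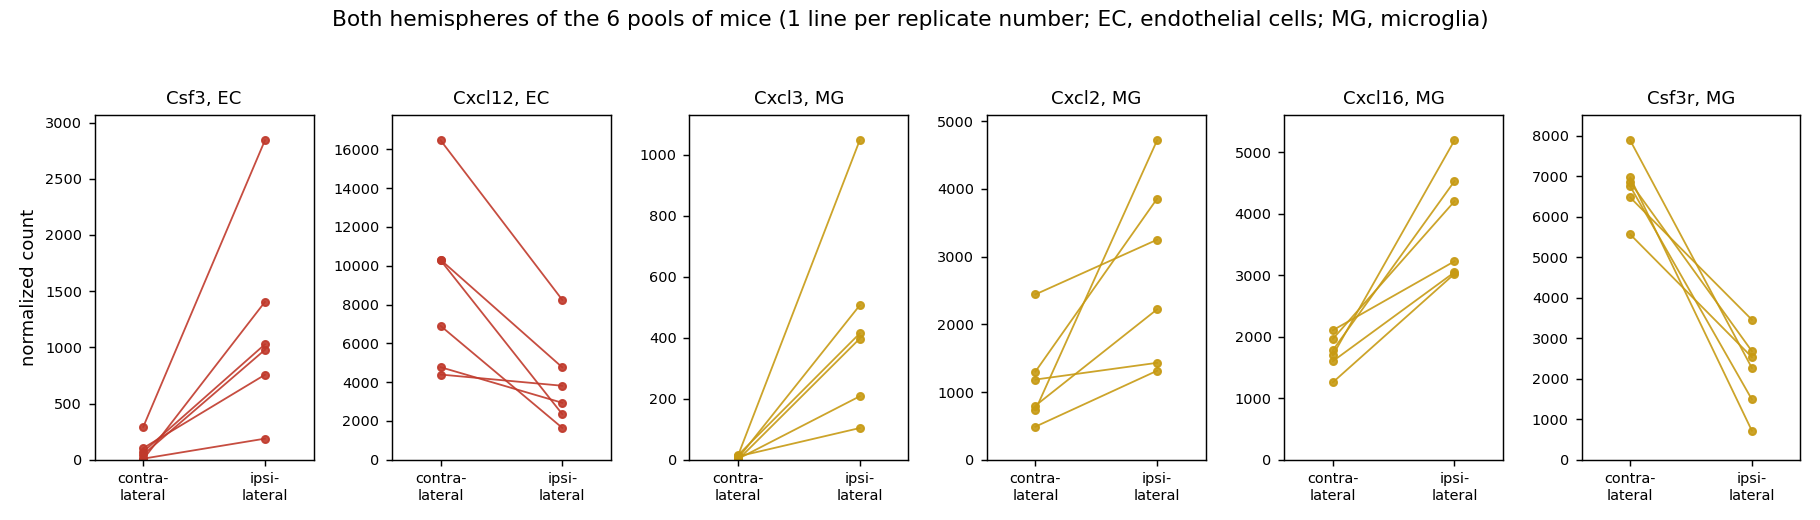
Normalized counts of 6 gene and cell type pairs (vertical axis, linear from 0) on the contralateral and ipsilateral side, with 1 line for each of the 6 pools of mice. *Csf3* in EC and *Cxcl3*, *Cxcl2* and *Cxcl16* in MG were higher on the ipsilateral side in 6 of 6 pools, and *Cxcl12* in EC and *Csf3r* in MG were lower in 6 of 6, *Cxcl12* without passing the test.

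Among the ELR chemokines *Cxcl3* had the largest log2 fold change in MG. Contralateral MG ran from 0 through 8 to 15 normalized counts, and ipsilateral MG from 104 through 405.5 to 1047. The groups did not overlap. The mean went from 8.0 ± 6.2 to 446 ± 329 (SD, n = 6), 55.8 times higher, with a log2 fold change of 5.78 (SE 0.71, adjusted p = 0.000239). This call held in each of the 6 fits that left out 1 replicate. Ipsilateral MG replicate 2, at 1047, also had the highest neutrophil marker sum of that group (18683). Without it the ipsilateral mean was 326 ± 165 (SD, n = 5). The part of neutrophil RNA in the *Cxcl3* values of MG was not tested.

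In the other cell types *Cxcl3* was at 0 in 5 of 6 contralateral PC, 4 of 6 contralateral AC and 3 of 6 contralateral EC libraries. The other contralateral EC libraries held 12, 123 and 32, for a mean of 27.8 ± 48.3 (SD, n = 6), and the highest contralateral values in PC and AC were 11 and 16. On the ipsilateral side EC ran from 3 through 151 to 426, PC from 0 through 124.5 to 605, and AC from 3 through 88 to 283. It was higher in 6 of 6 pools in EC and AC and in 5 of 6 in PC. The ipsilateral values of replicates 1 to 4 lay above those of replicates 5 and 6, at 81 to 426 against 3 to 18 in EC, 37 to 605 against 0 to 16 in PC and 41 to 283 against 3 to 21 in AC. The sum of 5 monocyte markers in the same libraries was 1228 to 5797 against 256 to 280 in EC, 790 to 8722 against 15 to 22 in PC and 214 to 2175 against 220 to 221 in AC, and its part in the *Cxcl3* values, like that of the microglia and neutrophil RNA described with *Csf3r* and *Cxcr2*, was not tested. The log2 fold changes of 3.56 (SE 1.45, adjusted p = 0.339) in EC, 5.24 (SE 1.44, adjusted p = 0.103) in PC and 4.75 (SE 1.11, adjusted p = 0.122) in AC did not pass the test over all genes. With the pool as a block the adjusted p in AC was 0.0168, but 1 ipsilateral library lay under the expression minimum.

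*Cxcl2* had its highest level in ipsilateral MG, followed by contralateral MG, which overlapped the next group, ipsilateral EC (exact permutation p = 0.0844). Contralateral MG ran from 489 through 991.5 to 2441, and ipsilateral MG from 1314 through 2734 to 4714. The ranges overlapped, although all 6 pools were higher on the ipsilateral side. The mean rose from 1158 ± 696 to 2797 ± 1371 (SD, n = 6), 2.41 times. Ipsilateral MG replicate 2, at 4714, also had the highest neutrophil marker sum of that group (18683), and without it the ipsilateral mean was 2413 ± 1116 (SD, n = 5). The part of neutrophil RNA in these values was not tested. Over all 6 replicates *Cxcl2* in MG had a log2 fold change of 1.30 (SE 0.39, adjusted p = 0.0422). The call was lost without replicate 1, 2, 3 or 6, at adjusted p-values of 0.103, 0.0953, 0.136 and 0.0543, and without the filter on low values (0.0633).

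In PC *Cxcl2* went from 0 to 36 on the contralateral side, median 4, to 12 to 1211 on the ipsilateral side, median 318.5. Every pool was higher, and the log2 fold change of 5.30 (SE 1.35) had an adjusted p of 0.0806, which became 0.0284 and a call when the pool of mice was included as a block. Replicates 1 to 4 of ipsilateral PC held 155 to 1211 and replicates 5 and 6 held 12 each. The same split appeared in ipsilateral EC, with 578 to 1160 against 28 to 103, and in ipsilateral AC, with 110 to 819 against 17 to 32, and the microglia marker sum divides the same libraries, at 6375 to 23411 against 2122 to 2270 in ipsilateral AC beside the PC and EC values above. In ipsilateral PC the monocyte marker sum was 790 to 8722 against 15 to 22. The neutrophil marker sum there was 45 to 12330 against 50 to 161. The part of this microglia, monocyte and neutrophil RNA in the *Cxcl2* levels was not tested. Averaged over replicates 5 and 6 alone, the log2 change of *Cxcl2* between hemispheres was 1.96 in EC, 3.20 in PC and 2.56 in AC, and over replicates 1 to 4 it was 1.91, 6.35 and 2.48. *Cxcl2* in EC, at a log2 fold change of 1.93 (95% interval −0.33 to 4.18, adjusted p = 0.501), and in AC, at 2.51 (−0.40 to 5.41, adjusted p = 0.62), was not called.

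*Cxcl1* rose in MG and did not pass the test in EC, where its mean log2 level was highest. Ipsilateral EC overlapped the next group in that order, ipsilateral PC (exact permutation p = 0.654). Without replicate 2 the contralateral EC mean of 419 lay below the ipsilateral PC mean of 478. Contralateral EC ran from 91 through 539.5 to 2928 and ipsilateral EC from 170 through 476.5 to 1414. These ranges lay over each other, and 4 of 6 pools were higher on the ipsilateral side, with a median log2 difference of 0.39. The log2 fold change in the fit was −0.02 (SE 0.71, 95% interval −1.54 to 1.50, adjusted p = 0.996, limma). That interval, without the block, still holds changes of more than 1 log2 unit in either direction. With the pool as a block the SE was smaller, at 0.39 (adjusted p = 0.989, limma). In MG, by contrast, the contralateral libraries at 48 to 90 all lay below the ipsilateral ones at 111 to 888. The MG median went from 75.5 to 177.5 and the mean from 72.3 ± 16.0 to 305 ± 293 (SD, n = 6). Ipsilateral MG replicate 2, at 888, also had the highest neutrophil marker sum of that group (18683), and without it the ipsilateral mean was 188 ± 69.7 (SD, n = 5). Over all 6 replicates *Cxcl1* in MG had a log2 fold change of 1.71 (SE 0.43, adjusted p = 0.0202), and the call was lost without replicate 3 or 4 (adjusted p = 0.056 and 0.0751).

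AC held *Cxcl1* at 5 to 124 on the contralateral side, median 24, and at 52 to 297 on the ipsilateral side, median 196.5. All 6 pools were higher, the log2 fold change was 2.40 (SE 0.69), and the adjusted p of 0.245 became 0.0384 with the pool as a block, which made it a call. PC went from 34 to 237, median 133, to 68 to 838, median 423.5, with a log2 fold change of 1.67 (95% interval 0.38 to 2.97, adjusted p = 0.199). The difference between the EC and the AC effect had the smallest unadjusted p of all comparisons of this kind, 0.0142, at −2.42 (SE 0.95), and an adjusted p of 0.701. In AC the neutrophil marker sum and that of 5 border macrophage markers were higher ipsilaterally in 6 of 6 pools. The monocyte marker sum was higher in 5 of 6. The part of this RNA in the *Cxcl1* values was not tested.

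*Cxcl5*, the fourth ELR chemokine, was low throughout and passed the minimum mean only in AC. All 6 contralateral libraries of EC, PC and MG were at 0, and on the ipsilateral side 2 of 6, 4 of 6 and 3 of 6 had values above 0, up to 19, 49 and 21. In AC it ran from 0 through 8 to 44 on the contralateral and from 6 through 30.5 to 82 on the ipsilateral side. Each AC pool was higher ipsilaterally, with a log2 fold change of 2.08 (95% interval −0.05 to 4.21, adjusted p = 0.556), which was not called.

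*Cxcr2*, the receptor of the ELR chemokines, was at 0 in all 6 contralateral EC libraries and at 16 through a median of 31.5 to 280 in the ipsilateral ones. No ipsilateral library came down to the contralateral level. The ipsilateral mean of 82.3 ± 104 (SD, n = 6) was at least 22.1-fold higher than the floor of 3 reads in the contralateral library where a read was worth most (3.73 normalized counts). Without replicate 3, at 280, the ipsilateral mean was 42.8 ± 42.5 (SD, n = 5) and at least 11.5-fold above the same floor. The log2 fold change on the log2(value + 1) scale was 5.54 (SE 0.83, adjusted p = 0.01), and the call was lost without replicate 3 (adjusted p = 0.0537) or replicate 6 (0.0706) and with a pseudocount of 10 (0.0531).

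AC showed a like pattern, with 4 of 6 contralateral libraries at 0 and a highest value of 21, against 23 to 142 on the ipsilateral side. The groups did not overlap, and the log2 fold change of 4.32 (SE 0.90) had an adjusted p of 0.0668, or 0.0306 and a call with the pool as a block. In PC the ipsilateral libraries divided into 3 at 0 and 3 at 284, 534 and 831, and the log2 fold change was 3.75 (95% interval −0.39 to 7.90, adjusted p = 0.372). MG went from 15 to 79, median 29, to 40 to 263, median 106, with all 6 pools higher, a log2 fold change of 1.69 (95% interval 0.49 to 2.88) and an adjusted p of 0.0642.

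*Cxcr2* is a gene of neutrophils, and it is set here beside the summed RNA of 10 neutrophil markers. Their summed level was higher on the ipsilateral side in 6 of 6 pools in EC, AC and MG and in 5 of 6 in PC. It ran from 31 to 1612 in contralateral and 87 to 9792 in ipsilateral EC, from 0 to 1258 and 45 to 12330 in PC, from 5 to 953 and 199 to 5197 in AC, and from 78 to 1066 and 1630 to 18683 in MG. In ipsilateral EC 9 of the 10 markers exceeded 10 in at least 1 library and *Camp* was at 0 in all 6, and in contralateral EC 5 exceeded 10 while *Camp*, *Ngp* and *Cd177* were at 0. The single markers did not move alike in EC. *S100a8*, *S100a9*, *Retnlg* and *Mmp8* were higher ipsilaterally in 6 of 6 pools, but *Ly6g* in 3, *Ngp* in 2 and *Ltf* in 1, with *Ltf* lower in 3. The 3 ipsilateral PC libraries with *Cxcr2* at 284, 831 and 534 had marker sums of 4923, 12330 and 5874, and the 3 with *Cxcr2* at 0 had 45, 50 and 161. The summed level of 5 monocyte markers in MG was 256 to 1347 on the contralateral and 1512 to 4013 on the ipsilateral side. That of 5 border macrophage markers was higher ipsilaterally in 6 of 6 pools in AC, 5 of 6 in EC and 4 of 6 in PC and MG. The part of neutrophil, monocyte and border macrophage RNA in the *Cxcr2* values, and in the chemokine values of the 4 cell types, was not tested. Replicates 5 and 6 of ipsilateral EC, with marker sums of 87 and 243, held *Cxcr2* at 16 and 19, and replicates 1 to 4, with sums of 2400, 4204, 9792 and 2047, held it at 116, 44, 280 and 19.

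**Figure D4:**
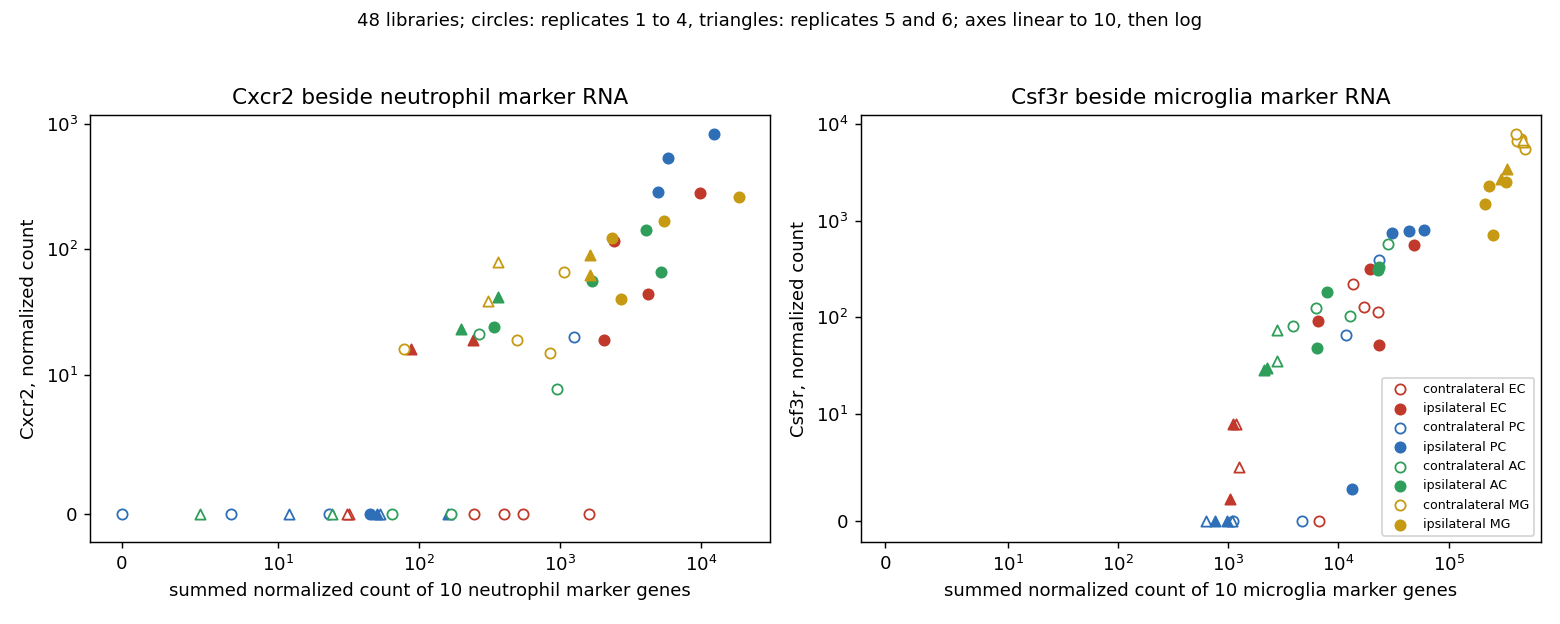
Normalized counts of *Cxcr2* against the summed level of 10 neutrophil marker genes (left), and of *Csf3r* against that of 10 microglia marker genes (right), in 48 libraries, with circles for replicates 1 to 4, triangles for replicates 5 and 6, and axes linear to 10 and logarithmic above. The highest *Cxcr2* value (831, ipsilateral PC) lies in the library with a neutrophil marker sum of 12330, and the MG libraries stand apart at the upper right of the *Csf3r* plot.

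*Cxcl12*, the chemokine of neutrophil retention, was lower in EC of the ischemic hemisphere in all 6 pools without passing the test over all genes. Contralateral EC ran from 4394 through 8590 to 16464 normalized counts, and ipsilateral EC from 1645 through 3377 to 8243. The ranges overlapped. The means were 8853 ± 4526 and 3960 ± 2367 (SD, n = 6), a ratio of 0.447, and the log2 fold change was −1.20 (SE 0.40, 95% interval −2.05 to −0.35, adjusted p = 0.218, or 0.0958 with the pool as a block). Averaged over replicates 1 to 4 the log2 change was −1.27 and over replicates 5 and 6 it was −1.06, so both sets of pools showed it. The summed level of the 4 EC markers, at 63144 to 92219 on the contralateral and 50747 to 80091 on the ipsilateral side, was higher ipsilaterally in 3 of 6 pools. That of 4 smooth muscle markers in EC, at 441 to 6161 and 205 to 1603, and that of 10 neuron markers, at 968 to 2679 and 438 to 1185, was higher ipsilaterally in 0 of 6 pools, and the part of this RNA in the *Cxcl12* values was not tested.

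The level of *Cxcl12* stepped down from EC to PC, AC and MG. Ipsilateral EC, at 1645 or more, did not overlap ipsilateral PC at 398 to 1129 (exact permutation p = 0.00216). The exact permutation p between contralateral PC and contralateral AC was 0.039, and between ipsilateral AC and contralateral MG it was 0.00866. Between hemispheres the log2 fold changes in PC (0.33, 95% interval −0.60 to 1.26), AC (−0.18, −1.10 to 0.74) and MG (−0.09, −2.07 to 1.89) had adjusted p-values of 0.764 or more. *Cxcr4*, its receptor, was low everywhere, with no library above 61, and its highest group mean was 27.0 ± 11.2 (SD, n = 6) in contralateral AC. Ipsilateral AC had 18.2 ± 6.0, lower in 5 of 6 pools, with a log2 fold change of −0.51 (95% interval −1.47 to 0.45, adjusted p = 0.791).

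*Cxcl16* was a microglial transcript that rose in every pool. Contralateral MG ran from 1259 through 1739.5 to 2106 and ipsilateral MG from 3023 through 3714.5 to 5193. The groups did not overlap. The mean rose from 1735 ± 296 to 3870 ± 906 (SD, n = 6), 2.23 times, with a log2 fold change of 1.14 (SE 0.18, adjusted p = 0.00164, limma). This call held in each of the 6 fits that left out 1 replicate. In the same libraries the microglia marker sum was higher ipsilaterally in 0 of 6 pools, and the neutrophil and monocyte marker sums in 6 of 6. Their part in the *Cxcl16* values of MG was not tested.

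Outside MG *Cxcl16* was not called. EC went from 30 to 346, median 95, to 95 to 1429, median 303.5, with 6 of 6 pools higher and a log2 fold change of 1.75 (95% interval 0.27 to 3.23, adjusted p = 0.323). PC, at 2.62 (0.63 to 4.61, adjusted p = 0.189), and AC, at 1.64 (−0.22 to 3.50, adjusted p = 0.607), did not pass either. In ipsilateral PC replicates 1 to 4 held 154 to 1669 and replicates 5 and 6 held 107 to 113. The log2 change averaged over replicates 5 and 6 was 0.24 in PC and 0.28 in AC, but 1.76 in EC. Over replicates 1 to 4 it was 3.81, 2.32 and 1.74. The microglia marker sum divides the same ipsilateral libraries of PC (13345 to 59700 against 759 to 969), EC and AC. So does the monocyte marker sum in PC and EC, as given with *Cxcl3*. Their part in the *Cxcl16* values outside MG, and that of neutrophil RNA, was not tested.

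Whether the hemisphere effect of a member differed between cell types was tested in 1 fit of all 48 libraries, with 9 members and the 6 pairs of cell types. None of the 54 differences was called. The smallest adjusted p (limma) was 0.313, or 0.068 with the pool as a block, which also called none. The smallest unadjusted p-values, none of them a call, were those of *Cxcl1* between EC and AC, *Cxcl2* between PC and MG (4.00, SE 1.71, adjusted p = 0.313), *Cxcr2* between EC and MG (3.85, SE 1.72, adjusted p = 0.396) and *Csf3r* between PC and MG (4.46, SE 2.17, adjusted p = 0.385). Over 15003 genes, 0.0267% were called between EC and PC, 0.0600% between EC and AC, 0.273% between EC and MG, 0.00667% between PC and AC, 0.727% between PC and MG and 0.293% between AC and MG. A call in 1 cell type and not in another is therefore not shown to be a difference between them.

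Other genes of the pathway were taken from 5 lists, in which most members did not pass the test. Their called counts are to be read against the shares over all genes given above, 0.491% in EC, 1.02% in PC, 0.341% in AC and 10.6% in MG, so that in MG 1 of 15 or 2 of 11 is near the share of any genes. Of 19 other CXC, XC and CX3C chemokines and receptors, 9 could be tested in EC, 9 in PC, 8 in AC and 11 in MG, and in MG 2 rose, *Cxcl10*, an interferon-induced ligand of CXCR3 (log2 fold change 0.98, SE 0.30, adjusted p = 0.0482, or 0.0708 and no call with the block), and *Cxcl14* (2.22, SE 0.54, adjusted p = 0.0172). The list's median log2 fold change was 0.89, 1.91, 0.73 and 0.98 in EC, PC, AC and MG. *Ackr1*, the venular receptor that presents chemokines on the endothelial surface, was called in EC only with the block (2.33, SE 0.98, adjusted p = 0.358 without and 0.0369 with it). *Cx3cr1*, the fractalkine receptor of microglia, was at −0.73 (SE 0.27) in MG, with an adjusted p of 0.0895 without and 0.0433 with the block, and *Pf4*, a chemokine of platelets and border macrophages, was at 2.03 (SE 0.73), with 0.0852 without and 0.0116 with it.

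Of 11 other colony-stimulating factors and receptors, 7 were tested in MG, where *Csf1*, which encodes the macrophage growth factor M-CSF (0.83, SE 0.25, adjusted p = 0.0422), and *Csf2rb2* (0.68, SE 0.17, adjusted p = 0.0183) rose and *Csf1r*, the M-CSF receptor (−1.10, SE 0.32, adjusted p = 0.0375), fell. None of 7 in EC, 7 in PC or 6 in AC was called, although *Csf1* in AC had an adjusted p of 0.0439 with the block (0.60, SE 0.18 without it). Among 17 inducers and regulators of neutrophil chemokines, *Il17ra*, the receptor of interleukin-17 (1.64, SE 0.36, adjusted p = 0.0479), and *Tnfrsf1a*, a receptor of tumor necrosis factor (0.68, SE 0.13, adjusted p = 0.0265), rose in PC, out of 16 tested. Of 15 tested in MG, *Nfkb1*, an NF-κB subunit, fell (−1.07, SE 0.22, adjusted p = 0.00711), and none of 16 was called in EC or AC, although *Il17ra* (0.69, adjusted p = 0.0492), *Tnfrsf1a* (0.99, 0.00707) and the transcription factor gene *Cebpd* (1.30, 0.00108) were called in AC with the block. The inhibitor gene *Nfkbia* and the mRNA-decay gene *Zfp36*, the most abundant of this list, were not called in any cell type.

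Of 7 proteases that cut these chemokines, *Mmp14*, a membrane-bound matrix metalloproteinase, rose in EC (2.10, SE 0.36, adjusted p = 0.0187), out of 7 tested, and none was called elsewhere. *Adam10*, a sheddase of CXCL16, lay between −0.39 and 0.07 in the 4 cell types and was not called. Of 9 genes of neutrophil capture and adhesion, none was called in EC, PC or AC, and 2 of 7 tested in MG fell, *Vcam1* (−0.76, SE 0.23, adjusted p = 0.0486) and *Selplg*, which encodes the P-selectin ligand PSGL-1 (−1.78, SE 0.27, adjusted p = 0.00124). The endothelial selectins *Sele* (2.30, SE 0.64, adjusted p = 0.14) and *Selp* (2.90, SE 0.99, adjusted p = 0.236), which slow neutrophils on the vessel wall, were not called in EC. *Icam1*, a ligand of neutrophil integrins, was called in AC only with the block (1.67, SE 0.50, adjusted p = 0.275 without and 0.0238 with it).

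Over the 48 libraries, the genes whose log2 values ran most like those of a member were named as a description. For *Csf3* they were *Sele* (Pearson r = 0.886), *Selp* (0.832) and *Ackr1* (0.82), and for *Cxcl12* *Slc9a3r2* (0.958), *Cavin2* (0.956) and *Jcad* (0.939). *Cxcl2* ran with *Cd14* (0.953), *Ms4a6c* (0.951) and *Cd52* (0.938), *Cxcl16* with *Ctsc* (0.935), *Pycard* (0.932) and *Edem1* (0.931), and *Csf3r* with *Adgre1* (0.95), *Cd33* (0.943) and *Vav1* (0.941). *Cxcl3* ran with *Slpi* (0.902), *S100a8* (0.878) and *Clec4d* (0.876), and *Cxcr2* with *Clec4n* (0.899), *Clec4e* (0.885) and *Adam8* (0.876). The nearest genes to *Cxcl1* were *Procr* (0.817), *Isg15* (0.812) and *Hnrnpa3* (0.803), and to *Cxcr4* they were *C3* (0.718), *Slc14a1* (0.708) and *Hdc* (0.662). *Cxcl5* was too low to be compared. Among the members the highest coefficients were 0.85 between *Cxcl2* and *Cxcl16* and 0.78 between *Cxcl2* and *Csf3r*, and *Cxcl1*, next to *Cxcl2* on the chromosome, reached 0.27 with it. The 48 libraries share pools of mice, cell types and hemispheres.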

How the data were processed

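RNA of sorted cells was amplified with a SMART-Seq HT kit from about 250 pg and sequenced by the authors as single-end reads. Per the submitters' processing notes and the study's methods, reads were trimmed with Trimmomatic (0.38), aligned with STAR (2.6.1d) to GRCm38, counted with featureCounts (1.6.3) and normalized with DESeq2 (1.18.1). The authors deposited these values as whole numbers after rounding, which makes them a score on which no count model was run, and an estimated 4900000 to 20200000 reads per library (median 11950000) fell on genes. Such low input makes values near 0 unsteady, and floors cover counting error only.

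Here limma (3.58.1, R 4.3.3) was fitted per cell type to log2(value + 1), in 12 libraries, with trend, over genes with a mean of at least 10, with Benjamini-Hochberg adjustment. Per the study's methods a replicate is a pool of mice that gave both hemispheres, and the replicate number was read as that pool, which the labels do not state. Same-numbered deviations had a mean correlation across genes of 0.23 (EC), 0.23 (PC), 0.38 (AC) and 0.14 (MG), with lowest values of 0.01, −0.07, 0.02 and −0.03, so not every pair showed it. The fit without the block stayed the main one. Differences between cell types used 1 fit of 48 libraries, and neighbouring levels an exact permutation test computed with numpy (2.4.6). All 10 members are named. Of the other lists, genes called in a cell type with or without the block and the most abundant ones are named, and *Sele* and *Selp* outside that rule. The 3 most alike genes are those with the highest Pearson r. The members and lists were chosen with earlier results of these data known. The fit was tested on simulated data. Alternatives were other pseudocounts, filters, scalings and fits, the block, leaving out replicates, and cell types by sample title. Means without 1 library were added after seeing the data. Promoters of *Cxcl5*, *Cxcl16* and *Csf3* were not analysed here.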

Additional observations from a re-analysis of the deposited data

Results flagged for a closer look

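On the log2(value + 1) scale, 6 of the 75 groups of 6 libraries with any spread held 1 library far from the other 5. In 2 of them the other libraries also varied, the case in which chance alone marks about 1 group in 20. *Cxcl1* in ipsilateral PC was lowest in replicate 1, at 68 normalized counts against 332 to 838 in the others. *Cxcl12* in ipsilateral MG was highest in replicate 4, at 189 against 17 to 35. In the remaining 4 the other 5 libraries were all at 0, where any value above 0 is marked and that rate does not apply, namely *Cxcl3* at 11 and *Cxcr2* at 20, both in replicate 2 of contralateral PC, and *Csf3* at 1 in contralateral PC and at 11 in contralateral AC, both in replicate 6. The *Csf3* value of 1 lies under the 3-read floor of its library, 3.04 normalized counts.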

How the results depend on the processing

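Over the fits of single members, 527 alternative values kept direction and side of the threshold, 10 became calls and 25 lost a call. A change of sign was seen in 17 uncalled values, whatever its size, and in 2 called ones. In EC the count of 2 called members fell to 1 with a pseudocount of 0.1 (*Cxcr2*) or 10 (*Csf3*), without the filter on low values (*Cxcr2*) or with a minimum mean of 50 (*Csf3*), to 0 in replicates 1 to 4 only, and to 0 to 1 when 1 replicate was left out (0 without replicate 3 or 6). The PC count of 0 became 1 with the replicate block pairing the hemispheres and 1 in the joint fit of 48 libraries (*Cxcl2* in both). The AC count of 0 became 2 with the replicate block (*Cxcl1*, *Cxcr2*) and 0 to 1 when 1 replicate was left out (*Cxcr2* without replicate 1). The MG count of 5 fell to 1 in the joint fit (*Cxcl3*) and to 3 without replicate 3, the lowest of 3 to 5, and was 4 without the filter on low values (*Cxcl2* lost). The block changed no other member's call. With cell types taken from the sample titles, 6 members were called in PC and 7 differed between cell types instead of 0, and in MG *Cxcl2* turned to −2.65 and *Cxcl16* to −2.26, a setting in which PC and MG libraries are set against each other. The cause of these changes was not tested. At a floor of 1.57 to 7.1 normalized counts, *Cxcl5*, *Cxcr4* and *Csf3* outside EC lay too near the floor for small differences to be detectable.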
